A study of Mus musculus with 16 samples.

Results

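The C/EBP factors (CCAAT/enhancer-binding proteins) were followed through their mRNAs, Cebpa, Cebpb, Cebpd, Cebpg and Cebpz. These 5 genes were chosen among the 30214 gene names on the array by exact match of the symbol. Cebpe, which encodes the related C/EBPε, is also on the array but was not among them and did not pass the detection filter. Each of the 5 had 1 probe, and each probe was well above background on all 16 arrays, so none of the 5 was lost to a filter. In cells depleted of eIF6, Cebpa mRNA was higher in both fractions of the gradient, 1.81-fold on polysomes and 2.30-fold in the subpolysomal fraction. These levels and those below are relative to the other mRNAs of a fraction, since the arrays were quantile normalized. Cebpd mRNA was lower on polysomes, at 0.516 of its level in control cells, and its subpolysomal change did not pass the test. Changes of Cebpb, Cebpg and Cebpz passed the test in neither fraction.

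C/EBPα, C/EBPβ and C/EBPδ are basic leucine zipper (bZIP) proteins that bind DNA as dimers and switch on genes of liver metabolism, of the acute phase response and of fat cell differentiation. C/EBPα is the form of mature hepatocytes and fat cells and restrains proliferation, while C/EBPβ and C/EBPδ are induced by cytokines and glucocorticoid. C/EBPγ has the zipper but no activation domain and pairs with the others and with ATF4. The Cebpa and Cebpb mRNAs carry a small upstream open reading frame (uORF), through which initiation is directed to a full-length or a truncated protein. The product of Cebpz binds CCAAT but has no leucine zipper, and its yeast relative works in the assembly of the 60S ribosomal subunit. eIF6 binds the 60S subunit, keeps it from joining 40S too early and is also needed to build it.

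The cells were AML12, a non-tumourigenic mouse hepatocyte line, with a doxycycline-driven shRNA that was either scramble or directed against Eif6. Cells of every group were grown in serum with insulin-transferrin-selenium and dexamethasone, received doxycycline for 48 h and then insulin for 1 h, the dose of which is 100 nM in one label and 100 mM in another. Sucrose gradients gave subpolysomal RNA (fractions 1 to 6, pooled) and polysomal RNA (fractions 7 to 10, pooled), and there were 4 arrays each of scramble subpolysomal, scramble polysomal, eIF6 shRNA subpolysomal and eIF6 shRNA polysomal RNA. Each of the 4 slides held 1 array of every group. The sources do not give the number of lines or clones behind an shRNA, so p values measure the spread between these arrays. Each of the 4 groups had both insulin and doxycycline.

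Between 20177 and 24953 of 39429 probes were well above background on an array, and precision is limited by there being 4 arrays per group. The hepatocyte markers Hnf4a, Krt8, Krt18, Ttr and Apob were above background on 16 of 16 arrays, Alb on 7 and Apoa1 on 2. Also on 16 of 16 were bile duct Krt7, Krt19 and Sox9, endothelial Kdr and Pecam1, and macrophage Cd68 and Csf1r. Detection alone thus does not tell hepatocytes from these other cell types. Eif6 itself was lower on polysomes of eIF6 shRNA cells, by -1.05 on the log2 scale (adjusted p = 1.45e-07 in limma), and its subpolysomal change of 0.02 was not called (adjusted p = 0.917). Of 6 fibroblast or stellate cell markers tested, 6 were called lower on polysomes and 5 in the subpolysomal fraction, against 10.7% and 12.3% of all genes. The log2 of their summed level was 17.17 to 17.90 on scramble polysomes and 14.06 to 14.59 on eIF6 shRNA polysomes, and 16.75 to 16.86 against 15.31 to 15.77 in the subpolysomal fraction. Most of that sum is Col1a2 and Acta2, with means of 16.52 and 15.98 on scramble polysomes. Of 4 macrophage or leukocyte markers tested, 1 was called lower in each fraction. In bulk RNA, fewer cells of a type and less RNA per cell cannot be told apart.

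What the array reads of each mRNA is given by its probe, here as the first 30 of 60 bases, 5′ to 3′, as deposited. None of it is in capitals, since no base was singled out.
Cebpa: ttttgttttggttttgctctgattcttgcc
Cebpb: agaggcgtatgtatattttgagaacctttt
Cebpd: gacatttccgacagacttttgtagataaga
Cebpg: aaattaagttgctgacaaaggaattaagtg
Cebpz: tttgactttgctgggtcatttcaaggacaa
In the mm9 build, the probe of Cebpa lies on the plus strand of chr7:35906517-35906576 and that of Cebpg on the minus strand of chr7:35835477-35835536, with 70980 bases between them. The probe of Cebpb is at chr2:167515828-167515887 and that of Cebpd at chr16:15888459-15888518, both on the plus strand. The probe of Cebpz spans 914 bases at chr17:79320086-79320999 on the minus strand, more than its 60 bases, and so crosses an intron. The GC content of the probes was 45% for Cebpa, 38.3% for Cebpd and 35% for each of the others. The probe of Cebpa begins at base 2205 of its transcript and that of Cebpb at base 1413. A 3′ probe measures the mRNA but not which start codon is used, so the uORF-dependent protein isoforms were not measured.

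Cebpa and Cebpg lie near each other, with the predicted genes Gm45095 and Gm35611 between them in GRCm38.p6, and their promoters were set side by side because the mRNA of only the first was called changed by the depletion. The 250 bases before each start site follow, from RefSeq (GRCm38.p6), in which 3 of the 5 members had an entry. Capitals mark CCAAT, the motif after which the family is named, and TTGCG, the first 5 bases of the palindrome TTGCGCAA that C/EBP dimers favour, on either strand.
Cebpa, chr7:35119043-35119292, plus strand: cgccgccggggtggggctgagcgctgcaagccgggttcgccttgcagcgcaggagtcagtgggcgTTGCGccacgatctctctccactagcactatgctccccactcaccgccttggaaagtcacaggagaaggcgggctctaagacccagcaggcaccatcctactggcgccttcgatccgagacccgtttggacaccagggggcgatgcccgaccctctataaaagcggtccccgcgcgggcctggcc
Cebpg, chr7:35056567-35056816, minus strand: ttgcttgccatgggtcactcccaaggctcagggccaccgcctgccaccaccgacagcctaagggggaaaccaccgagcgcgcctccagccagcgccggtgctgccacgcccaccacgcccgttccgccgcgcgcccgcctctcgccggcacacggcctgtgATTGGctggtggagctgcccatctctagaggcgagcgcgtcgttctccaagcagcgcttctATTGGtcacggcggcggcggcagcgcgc
The Cebpg window held 2 CCAAT motifs, both read on the opposite strand as ATTGG, and no TTGCG. The Cebpa window held 1 TTGCG and no CCAAT, and the window of Cebpb held neither. Among 32851 promoter windows of the same length, 33.8% held CCAAT, 14.5% held TTGCG and 0.164% the whole palindrome, which none of the 3 members had. These matches describe the letters only.

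Signals below are log2 values, quantile normalized over the 16 arrays, and levels are compared for 1 probe between groups. That sets all arrays to 1 distribution, so every change is relative to the other genes of the fraction, not an amount of mRNA. The paper reports fewer polysomes in eIF6 shRNA cells after insulin, a loss that these values do not show. Subtracting the scramble mean from the eIF6 shRNA mean gave the polysomal change on polysomes and the subpolysomal change in the other fraction. The first less the second was the change in translational efficiency. P values are from limma with Benjamini-Hochberg adjustment over 19365 genes, and calls were made at a threshold of 0.05. Of the 5 members, 1 was called higher and 1 lower on polysomes, where 11.1% of all genes tested were called higher and 10.7% lower. In the subpolysomal fraction 1 was called higher and 0 lower, against 11.8% and 12.3% of all genes. In translational efficiency 0 were called higher and 1 lower, against 0.403% and 1.11%. Those last shares stand for 78 and 214 genes, and the numbers were 47 to 112 and 135 to 211 with 1 array left out, and 28 to 40 and 56 to 109 with 1 slide left out. With 5 members and these backgrounds, the counts say little of the family as a whole, and the results are those of the single genes.

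**Figure D1:**
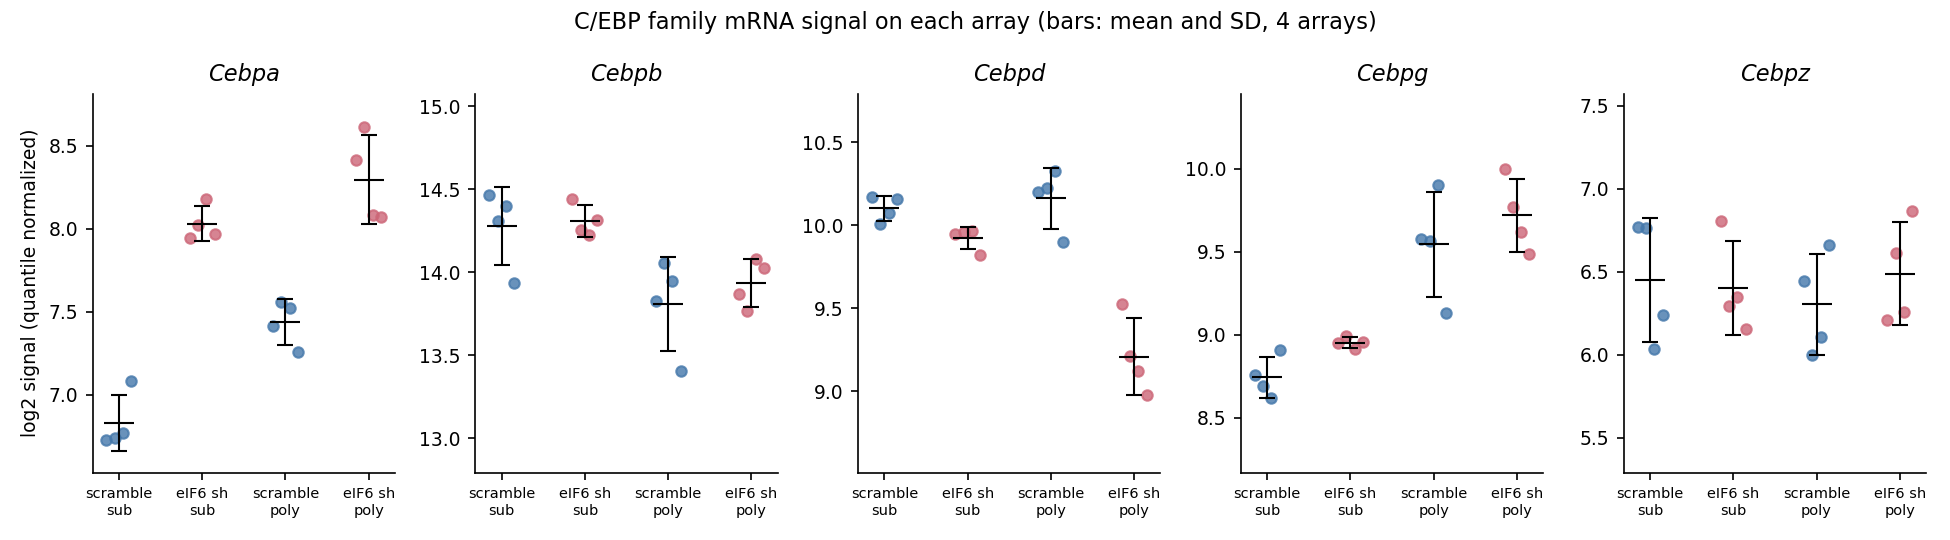
Log2 signal of the 5 C/EBP mRNAs (vertical axis, the same span in every panel) on each array of the 4 groups, with blue points for scramble, red for eIF6 shRNA, and black bars for the mean and SD of 4 arrays. Cebpa separates by shRNA in both fractions, Cebpd stands low in eIF6 shRNA polysomes, and Cebpg separates by fraction.

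Cebpa encodes the factor that maintains the differentiated hepatocyte. Its log2 signal on scramble polysomes was 7.42, 7.56, 7.52 and 7.26 in replicates 1 to 4, and on eIF6 shRNA polysomes 8.42, 8.62, 8.09 and 8.07. Subpolysomal signal was 6.73, 6.74, 6.77 and 7.08 in scramble cells and 7.95, 8.02, 8.18 and 7.97 in eIF6 shRNA cells. The groups did not overlap in either fraction, and the lowest eIF6 shRNA array of the polysomes lay above the highest scramble array. The polysomal change was 0.86 ± 0.13 (SE; 95% confidence interval 0.58 to 1.13; adjusted p = 0.000156 in limma). The subpolysomal change was larger as a point estimate, 1.20 ± 0.13 (0.92 to 1.48; adjusted p = 7.99e-06). The difference between them, the change in translational efficiency, was -0.34 ± 0.18 with an interval of -0.73 to 0.05 (adjusted p = 0.485), so a different response of the fractions was not shown. Cebpa was higher in eIF6 shRNA cells within 4 of 4 slides in both fractions, by 0.52 to 1.36 on polysomes and by 0.94 to 1.41 in the subpolysomal fraction. Both changes were called with any 1 array left out. Scaled to 7 spike-in probes, which moved the median polysomal change of all genes from 0.02 to -0.47, the changes were 0.435 and 0.815 and were not called (adjusted p = 0.657 and 0.983).

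Cebpd encodes C/EBPδ, an early factor of fat cell differentiation and of the acute phase response. Its log2 signal on scramble polysomes was 10.20, 10.23, 10.33 and 9.90, and on eIF6 shRNA polysomes 9.53, 9.21, 9.12 and 8.98. Its subpolysomal signal was 10.17, 10.01, 10.07 and 10.16 in scramble cells and 9.95, 9.96, 9.96 and 9.82 in eIF6 shRNA cells. Every eIF6 shRNA array lay below every scramble array of its fraction, with a gap on polysomes and a narrow step in the subpolysomal fraction. The polysomal change was -0.95 ± 0.11 (SE; interval -1.20 to -0.71; adjusted p = 1.88e-05 in limma), and it was called with any 1 array left out. Scaled to the spike-in probes it was -1.47 and not called (adjusted p = 0.0573). The subpolysomal change was -0.18 ± 0.11, with an interval of -0.42 to 0.07 (adjusted p = 0.293). Within slides Cebpd was lower in 4 of 4, by -1.23 to -0.69 on polysomes and by -0.35 to -0.06 in the subpolysomal fraction.

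The change in translational efficiency of Cebpd was -0.78 ± 0.16 (SE; interval -1.12 to -0.43; adjusted p = 0.027 in limma), which tests the difference between its fractions directly. It was negative within 4 of 4 slides, from -1.17 to -0.58. The call was near the threshold, and leaving out any of several arrays, spread over the groups, lost it. With 1 array left out the value ranged from -0.88 to -0.70, and 7 of 16 such fits called it (adjusted p 0.00697 to 0.0674). The calls were lost without scramble subpolysomal replicate 2 or 3, scramble polysomal replicate 1, 2 or 3, eIF6 shRNA subpolysomal replicate 1, 2 or 3, or eIF6 shRNA polysomal replicate 3. With 1 slide left out it was called in 1 of 4 fits, without slide 1. With the 2 fractions of the same shRNA and number taken as 1 culture, the adjusted p was 0.102. Eif6, the target of the shRNA, changed in translational efficiency by -1.07 (adjusted p = 0.000145 in limma), called in 16 of 16 fits with 1 array left out. The fibroblast or stellate markers were lower in the same eIF6 shRNA arrays, with a median of -3.10 on polysomes and -1.54 in the subpolysomal fraction, and Pdgfra was above background on 0 of 4 arrays of each. The summed hepatocyte markers were at 18.26 to 18.87 on scramble polysomes and 18.43 to 18.92 on eIF6 shRNA polysomes. Most of that sum is Krt18, with means of 18.17 and 18.32, so it says little of the other markers. Taken singly, 0 of 9 were called lower and 1 higher on polysomes, against 10.7% and 11.1% of all genes. The part of other cell types in the changes of Cebpd and Cebpa was not tested.

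**Figure D2:**
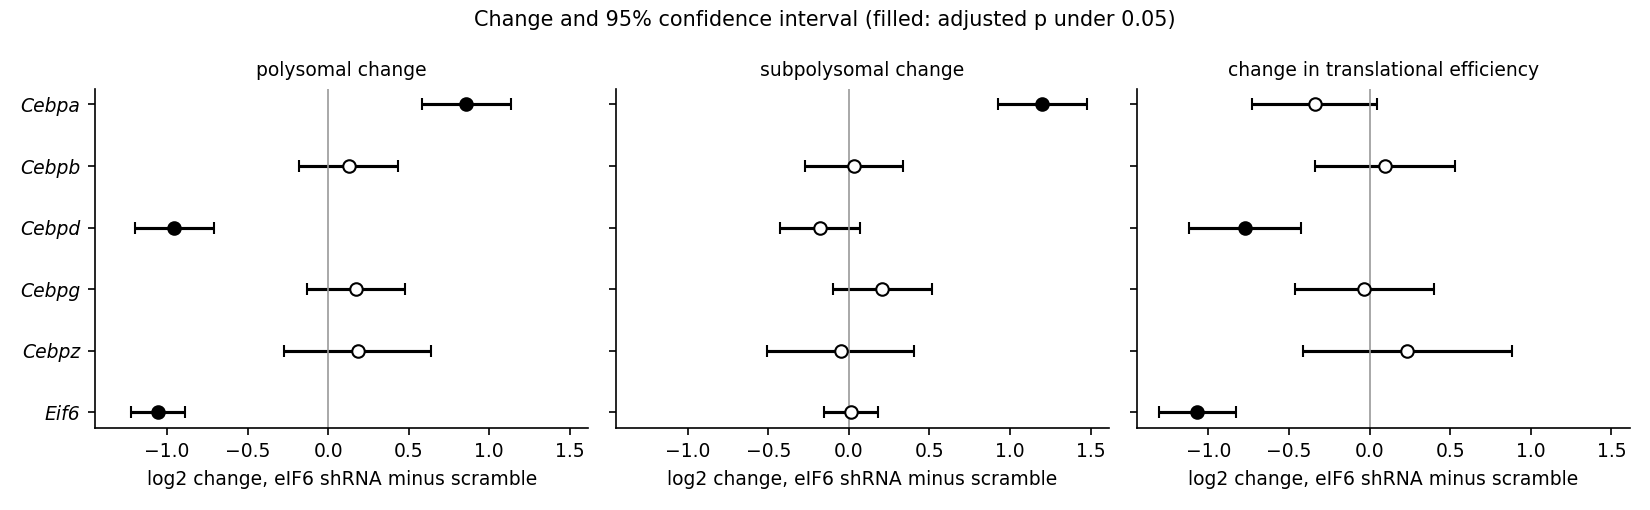
Log2 change of each C/EBP mRNA and of Eif6 (horizontal axis, eIF6 shRNA minus scramble) in polysomal RNA, in subpolysomal RNA and in translational efficiency, with 95% confidence intervals from the limma fit and filled points for adjusted p under 0.05. Cebpa lies to the right in both fractions, while Cebpd and Eif6 lie to the left on polysomes and near or at 0 in the subpolysomal fraction.

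The difference between Cebpa and Cebpd within an array was followed too. A constant by which an array is scaled drops out of it, but quantile normalization, which depends on the signal level, does not. The pair was chosen after its values were seen, so no test is given, and only the shift between groups has a meaning. Cebpa minus Cebpd on the log2 scale was -2.72 ± 0.08 (SD, n = 4 arrays) on scramble polysomes and -0.91 ± 0.23 on eIF6 shRNA polysomes, a shift of 1.81 or 3.51-fold. For subpolysomal RNA it went from -3.27 ± 0.15 to -1.89 ± 0.09, a shift of 1.38 or 2.60-fold. Both shifts only combine the changes of Cebpa and Cebpd given above. The shRNA groups could not overlap here, since each of the 2 genes already separated them in both fractions, in opposite directions.

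Cebpb encodes C/EBPβ, whose long and short forms (LAP and LIP) arise from 1 mRNA through its uORF. Its log2 signal on polysomes was 13.83, 14.06, 13.95 and 13.41 in scramble cells and 13.87, 13.77, 14.08 and 14.03 in eIF6 shRNA cells. Subpolysomal arrays gave 14.46, 14.31, 14.40 and 13.94 in scramble cells and 14.44, 14.26, 14.23 and 14.32 in eIF6 shRNA cells. The groups overlapped in both fractions, and the lowest value of each belonged to scramble replicate 4. The polysomal change was 0.13 (interval -0.18 to 0.43; adjusted p = 0.617 in limma) and the subpolysomal change 0.03 (-0.27 to 0.34; adjusted p = 0.901). The change in translational efficiency was 0.10, with an interval of -0.34 to 0.53 (adjusted p = 0.909).

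Cebpg encodes the inhibitory partner C/EBPγ. On polysomes its log2 signal was 9.57, 9.57, 9.90 and 9.13 in scramble cells and 10.00, 9.77, 9.62 and 9.49 in eIF6 shRNA cells. Off polysomes, in the subpolysomal fraction, it was 8.76, 8.69, 8.62 and 8.91 in scramble cells and 8.95, 8.99, 8.91 and 8.95 in eIF6 shRNA cells. The shRNA groups overlapped on polysomes and were just apart in the subpolysomal fraction, where scramble replicate 4 nearly met the lowest eIF6 shRNA array. The polysomal change was 0.17 (interval -0.13 to 0.48; adjusted p = 0.464 in limma) and the subpolysomal change 0.21 (-0.10 to 0.51; adjusted p = 0.325). The change in translational efficiency was -0.03, with an interval of -0.46 to 0.40 (adjusted p = 0.973).

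Cebpz, the member without a zipper, had a wide spread within groups. Its log2 signal ran from 5.999 to 6.66 on scramble polysomes and from 6.21 to 6.87 on eIF6 shRNA polysomes. Subpolysomal arrays ran from 6.04 to 6.77 and from 6.16 to 6.81. All 4 groups overlapped. The polysomal change was 0.18 (interval -0.27 to 0.64; adjusted p = 0.632 in limma), the subpolysomal change -0.05 (-0.51 to 0.41; adjusted p = 0.896) and the change in translational efficiency 0.24 (-0.41 to 0.88; adjusted p = 0.822). These intervals are wider than those of the other members.

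**Figure D3:**
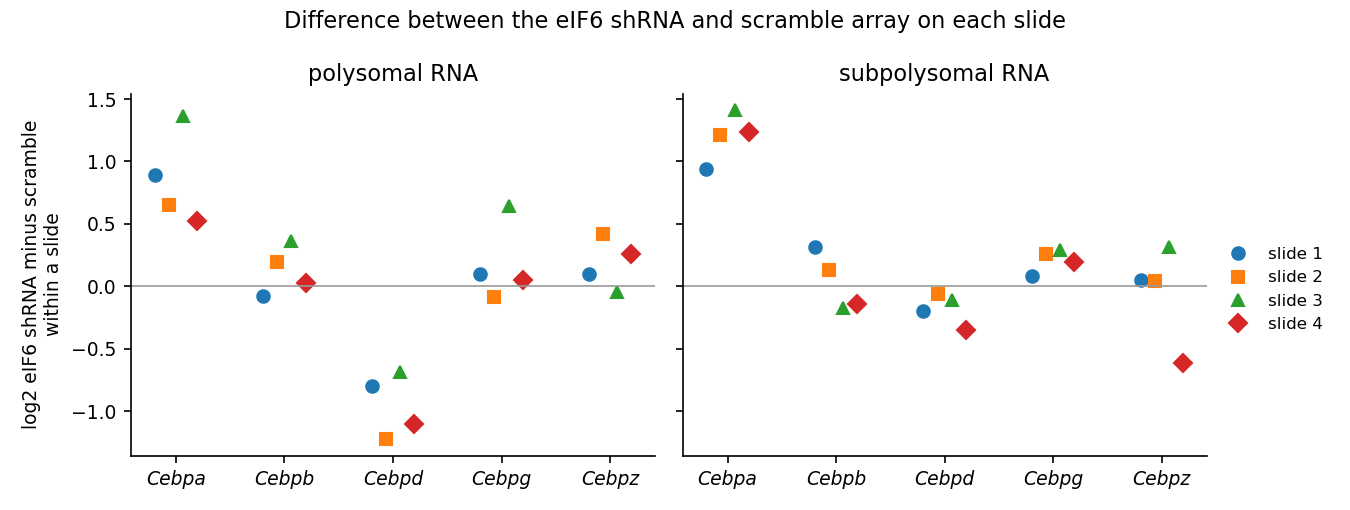
Log2 signal of the eIF6 shRNA array minus that of the scramble array on the same slide (vertical axis), for polysomal and subpolysomal RNA, with 1 symbol per slide. All 4 slides place Cebpa above 0 and Cebpd below 0 in both fractions, while Cebpb, Cebpg on polysomes and Cebpz fall on both sides of 0.

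The distribution of each mRNA between the fractions was compared within cells of 1 shRNA. These differences are relative to the other genes of the array, since quantile normalization sets the fractions to 1 distribution and the amount of mRNA in each is not known. In scramble cells 31.7% of all genes were called higher and 28.4% lower on polysomes than in the subpolysomal fraction, and in eIF6 shRNA cells 32.1% and 28.7%, so a call is common here. Cebpg was higher on polysomes in both, by 0.80 (adjusted p = 0.000196 in limma) in scramble cells and 0.77 (adjusted p = 0.000287) in eIF6 shRNA cells, with no overlap of the fractions. Cebpa was higher on polysomes in scramble cells, by 0.61 (adjusted p = 0.00083), and the 0.27 in eIF6 shRNA cells was not called (adjusted p = 0.0861). Whether the 2 differ is the test of translational efficiency given above, which was not passed. Scaled to the 75th percentile of each array, the 0.61 of Cebpa became 0.26 and was not called (adjusted p = 0.12).

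Cebpb was lower on polysomes, by -0.47 (adjusted p = 0.0105 in limma) in scramble cells and -0.37 (adjusted p = 0.0338) in eIF6 shRNA cells, but scaled to the spike-in probes these differences were 1.44 and 1.25. The fractions of eIF6 shRNA cells did not overlap for Cebpb, and those of scramble cells did. With 1 array left out, the call in eIF6 shRNA cells was lost without subpolysomal replicate 1 or 4 or polysomal replicate 1 or 2. With 1 slide left out it was lost in 4 of 4 fits (adjusted p 0.0526 to 0.131), and the call in scramble cells was lost without slide 2 or 3 (adjusted p = 0.0584 and 0.0939). Cebpd differed by 0.06 in scramble cells (adjusted p = 0.665) and was lower on polysomes in eIF6 shRNA cells by -0.71 (adjusted p = 7.95e-05), a sign that turned to 0.84 with spike-in scaling. The median difference of all genes rose with that scaling as well, to 1.52 and 1.30 from 0.04 and 0.03. Cebpz was at -0.15 and 0.09 and was not called (adjusted p = 0.57 and 0.745).

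**Figure D4:**
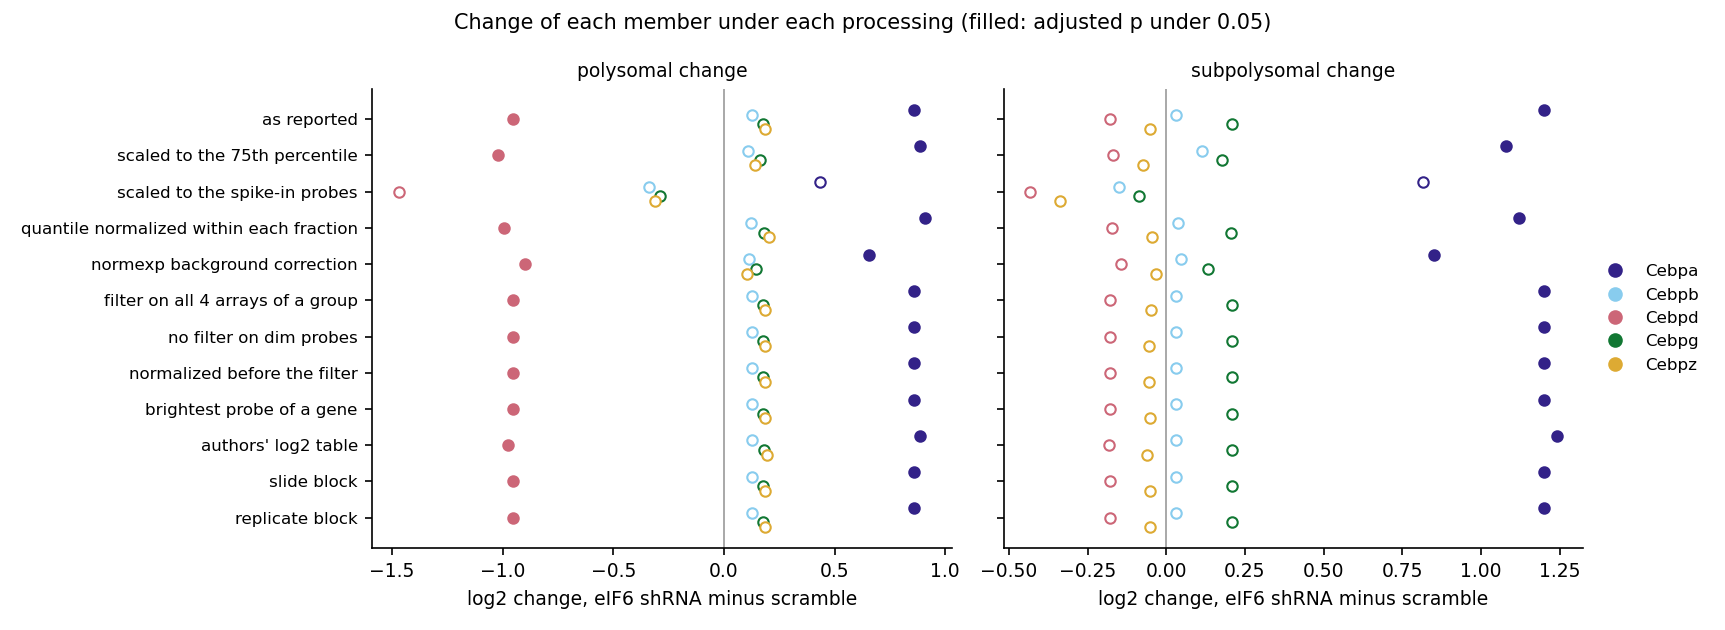
Log2 change of the 5 members (horizontal axes, which differ in range between panels) under each way of processing the arrays, with filled points for adjusted p under 0.05. Cebpa stays to the right and Cebpd to the left of 0 in every row, and spike-in scaling moves all members to the left and leaves none called.

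For each member the 3 genes with the closest pattern over the 16 arrays were sought among 14566 genes above background on every array. For Cebpa they were Gstm5 (r = 0.977), Grina (0.973) and Nfkbib (0.967), and for Cebpd Ddah2 (0.935), Tarbp2 (0.919) and Fxyd5 (0.909). Vps29 (0.983) and Akirin1 (0.980) were closest to Cebpg, Zfp626 (0.960) and Chfr (0.955) to Cebpb, and Mag (0.852), Pgm1 (0.831) and Tnks1bp1 (0.814) to Cebpz. The third feature of Cebpb and of Cebpg has no gene symbol in the files. The arrays of a group share their condition, and those of a slide share the slide, so these values describe likeness only. With the group means removed, r fell to 0.611 for Gstm5 and 0.404 for Ddah2, but was 0.942 for Vps29 and 0.901 for Mag.

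Lists of genes around the C/EBP factors were described next, by counts and medians beside those of all genes (0.02 in each of the 3 comparisons). Of 51 called changes of the genes named for these lists by size, 9 were also called with spike-in scaling, and 47 kept their direction. With 1 slide left out, 32 of the 51 were called in 4 of 4 fits. Each list's counts are to be read against the shares of all genes called, 11.1% higher and 10.7% lower on polysomes and 11.8% and 12.3% in the subpolysomal fraction. The first list holds bZIP factors that pair with or resemble the C/EBPs. Of 18, 16 were tested, and Cebpe and Hlf did not pass the detection filter. On polysomes 5 were called higher and 0 lower, or 5 of 16 against 11.1% of all genes, with a median change of 0.28. Dbp, a clock-driven factor of the liver, was higher by 1.29 on polysomes and 1.43 in the subpolysomal fraction (adjusted p = 1.38e-07 and 8.52e-08 in limma). Atf3, a stress-induced factor, was higher by 0.67 and 0.55, and Junb, an immediate early factor, by 0.61 on polysomes. Fos was higher by 0.24. Crebl2 was higher by 0.52, a call kept in 6 of 16 fits with 1 array left out. In the subpolysomal fraction 3 were higher and 3 lower, with a median of -0.03. The lower ones were Atf4, a uORF-controlled partner of C/EBPγ, by -0.54, Creb1 by -0.45 and Atf5 by -0.44, and the third of the higher ones was Ddit3, which encodes the dominant-negative C/EBP relative CHOP, by 0.44. In translational efficiency 0 of 16 were called.

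Of 18 genes that act on the translation of C/EBP mRNAs (eIF2 kinases, the mTOR pathway, reinitiation factors and Celf1 among them), 2 were lower and 1 higher in each fraction, with medians of -0.03 and -0.12. Eif2ak4, which encodes the eIF2 kinase GCN2, was lower by -0.42 on polysomes and -0.45 in the subpolysomal fraction (adjusted p = 0.00107 and 0.000649 in limma). Eif4ebp1, for the cap-binding inhibitor downstream of mTOR, was lower by -0.33 and -0.41. Eif2ak3, for the eIF2 kinase PERK, was higher by 0.29 and 0.26, and its sign turned with spike-in scaling. With 1 array left out, 10 of 16 fits called Eif4ebp1 and 11 called Eif2ak3 on polysomes, and 4 called Eif2ak3 in the subpolysomal fraction. None of the 18 was called in translational efficiency.

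Of 13 genes for turnover and cofactors of C/EBP proteins, 12 were tested, with 2 lower and 1 higher on polysomes and 1 of each in the subpolysomal fraction. The medians were 0.01 and -0.07. Trib2 encodes a Tribbles pseudokinase that brings C/EBPα to the ubiquitin ligase COP1 for destruction. Its probe was above background on 4 of 4 scramble polysomal arrays and on 0 of 4 eIF6 shRNA polysomal arrays. Against the lowest measurable signal the polysomal level of Trib2 was at least 5.89-fold lower. In the subpolysomal fraction it was at least 1.60-fold lower, with 3 of 4 scramble arrays above background. The limma test was of the measured changes, which use signals below background, and not of these bounds (adjusted p = 5.10e-09 and 2.03e-06). Its relative Trib3 was lower on polysomes by -0.29, not called without scramble polysomal replicate 2 or 3. Rfwd2, the gene of COP1 itself, was higher on polysomes by 0.32, not called in 5 of 16 fits with 1 array left out, and -0.12 with spike-in scaling. Smarca2, of the chromatin remodelling complex, was higher by 0.36 in the subpolysomal fraction. Translational efficiency was called lower for 1 of 12, Trib2, whose eIF6 shRNA signals are only bounds, so no size is given.

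Known targets of the C/EBPs in the liver moved in both directions. Of 23 hepatic and acute phase genes 16 were tested, of which 6 were higher and 3 lower on polysomes. In the subpolysomal fraction 5 were higher and 1 lower, and the medians were -0.00055 and 0.37. With 1 array left out, 3 to 5 were called higher and 2 to 3 lower on polysomes. With 1 slide left out, 4 were called higher and 2 lower there. Ttr, the gene of transthyretin, was higher by 1.15 and 1.33 (adjusted p = 5.52e-07 and 2.00e-07 in limma). Orm1 and Orm2 encode the acid glycoproteins of the acute phase and are close in sequence, so their probes may share signal. Orm1 was higher by 1.15 on polysomes and Orm2 by 1.00, the latter called in 4 of 16 fits with 1 array left out. Subpolysomal signal was higher by 1.56 and 1.95, with 2 of 4 scramble arrays above background for each. Saa3, an acute phase amyloid protein of many tissues, was lower by -1.08 and -0.98. Lcn2, of lipocalin-2, was lower on polysomes by -0.50 but higher in the subpolysomal fraction by 0.39, and its change in translational efficiency was -0.89 (adjusted p = 0.00445), not called without slide 2 or 4 (adjusted p = 0.123 and 0.0713). Hp, of haptoglobin, was the third gene lower on polysomes, by -0.45. Serpina3n was called higher in translational efficiency, but it was above background on 2 of 16 arrays.

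Of 15 inflammatory targets 14 were tested, with 5 lower and 6 higher on polysomes and 5 lower and 4 higher in the subpolysomal fraction. The medians were -0.04 and 0.01. Il6, the cytokine gene behind the older name of C/EBPβ, nuclear factor for IL-6, was lower by -3.16 on polysomes and -3.28 in the subpolysomal fraction (adjusted p = 1.15e-07 and 1.30e-07 in limma). Ccl5 was lower by -0.95 and -1.16, and Ptgs2, for the prostaglandin enzyme COX-2, by -0.89 and -0.99. In the other direction, Icam1 was higher by 1.49 and 1.44 and the chemokine gene Ccl2 by 1.21 and 0.68. Here too 0 of 14 were called in translational efficiency.

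In the adipogenic cascade, in which C/EBPβ and C/EBPδ act before C/EBPα and PPARγ, 18 of 22 genes were tested, and 6 were lower and 2 higher on polysomes. The median was 0.03. Fabp4, a fatty acid carrier and PPARγ target, had a measured difference of -3.10 and was called lower, with 2 of 4 eIF6 shRNA polysomal arrays above background (adjusted p = 2.39e-06 in limma). Ebf1, an early factor of the lineage, was lower by -1.94, Lpl by -1.67, Egr2 by -0.57 and Pparg itself by -0.49. Cidec, a lipid droplet gene, was at least 2.21-fold lower, above background on 0 of 4 eIF6 shRNA polysomal arrays. Lpin1 and Klf4 were higher, by 0.80 and 0.67. In the subpolysomal fraction 4 were lower and 3 higher, with a median of 0.02, among them Ebf1 at -1.42, Egr2 at -0.75, Pparg at -0.36, Lpin1 at 1.17, Klf4 at 0.67 and Acsl1 at 0.30. Fabp4 was the other one lower there, at least 1.47-fold, with 3 of 4 scramble and 0 of 4 eIF6 shRNA arrays above background. Lpl was the 1 gene called lower in translational efficiency, by -1.73 (adjusted p = 0.0335), a call kept in 4 of 16 fits with 1 array left out. The fibroblast or stellate markers were lower on the same eIF6 shRNA arrays, and the part of cell types in the adipogenic changes was not tested.

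**Figure D5:**
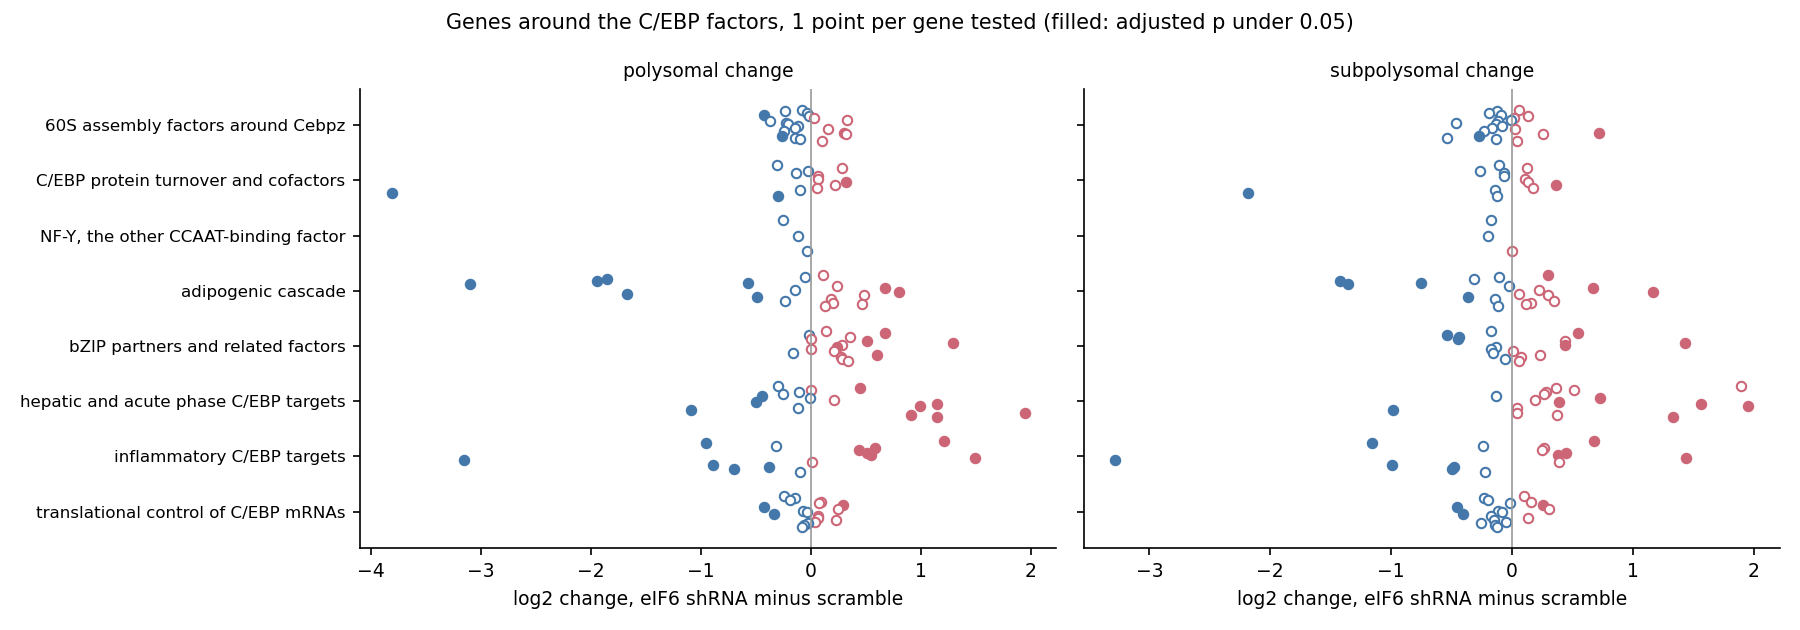
Log2 change of every tested gene of the 8 lists around the C/EBP factors (horizontal axes, which differ in range), in polysomal and subpolysomal RNA, with blue for lower, red for higher and filled points for adjusted p under 0.05; for genes not above background in 1 group the plotted value is the measured one, not a bound. The inflammatory targets reach furthest down in the subpolysomal panel, with Il6 at -3.28, and the 60S factor furthest from 0 is Nsa2, at 0.72 in the subpolysomal panel.

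Cebpz was set against 20 factors of 60S assembly. Of these, 2 were lower and 1 higher on polysomes, and 1 of each in the subpolysomal fraction, with medians of -0.10 in both. Nsa2, a pre-60S factor, was higher by 0.30 on polysomes and 0.72 in the subpolysomal fraction (adjusted p = 0.00407 and 2.00e-06 in limma), and the polysomal value was -0.15 with spike-in scaling. Its change in translational efficiency was -0.42 (adjusted p = 0.0405), a call kept in 3 of 16 fits with 1 array left out. Ebna1bp2 was lower on polysomes by -0.42 and Ppan by -0.26, and Ppan was lower in the subpolysomal fraction by -0.27. The 3 subunits of NF-Y, the heterotrimer that is the main CCAAT-binding factor of mammalian cells, were called in neither fraction, with medians of -0.12 and -0.17.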

How the data were processed

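The authors deposited the scanner software's background-corrected intensity of each spot, not normalized between arrays, and a log2 table of the same 16 arrays that was quantile normalized. The submitters' processing notes name Feature Extraction 10.7.7.1 and the file headers 10.7.3.1. Control spots and spots marked as outliers were left out, 82 probe values were then missing, and probes detected above background on 2 or more arrays of any group were kept (25260 probes, 19365 genes). Log2 intensities were quantile normalized in R 4.3.3, averaged per gene name and fitted with 4 group means in limma 3.58.1 over all 16 arrays. The fit was tested on simulated gene values with independent noise, and the filter, normalization and averaging were not. Replicate numbers were not used as pairs, since the sources do not say whether they mark pairs. Between the fractions of an shRNA, arrays of the same number had r from -0.157 to 0.0296. Between the shRNAs within a fraction r was up to 0.412. A low r cannot show that the 2 fractions came from different gradients. Values within slides, scalings, background correction, filters, blocks and left-out arrays or slides were alternatives, of which the culture block and the left-out slides were added after the data were seen. The members and lists were chosen with earlier results of these data known. Named list genes were, per list and comparison, the called genes with the largest changes, up to 4, by a fixed order, and a few more are named to complete small counts. Gene names and mm9 probe positions are those of the deposited files, and promoters are from RefSeq.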

Additional observations from a re-analysis of the deposited data

Results flagged for a closer look

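In the subpolysomal fraction of scramble cells, replicate 4 stood apart for Cebpa, at 7.08 against 6.73 to 6.77 on the other arrays, a gap of 0.892 of the whole range of the group. Likewise, in the subpolysomal fraction of eIF6 shRNA cells, replicate 4 stood apart for Cebpd, at 9.82 against 9.95 to 9.96, a gap of 0.884 of the range. Both pass the critical value of Dixon for 4 arrays, 20 sets of 4 arrays were examined, and chance passes it in about 1 of 20. The effect of the eIF6 shRNA on Cebpd differed between the polysomal and subpolysomal fractions by -0.776 on the log2 scale (adjusted p = 0.027 in limma). That call was near the threshold. It was kept in 7 of 16 fits with 1 array left out and in 1 of 4 with 1 slide left out.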

How the results depend on the processing

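The polysomal and subpolysomal changes of Cebpa and the polysomal change of Cebpd kept their direction under every alternative run and their calls under all but spike-in scaling, which gave 0.435, 0.815 and -1.47. With 1 array left out they ranged from 0.752 to 0.934, from 1.15 to 1.28 and from -1.06 to -0.877. Only 7 spike-in probes carry that scaling, and its standard error was 0.503 for each.

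The change in translational efficiency of Cebpd was negative throughout but was not called with spike-in scaling (-1.03), with the culture as a block (-0.776, adjusted p = 0.102), or without slide 2 (-0.646), 3 (-0.842) or 4 (-0.782). With 1 array left out it ranged from -0.881 to -0.699. With the replicate number as a block it was -0.776 and called (adjusted p = 0.0281), and the block changed no other call of a member (0.858 and 1.2 for Cebpa, adjusted p = 0.00078 and 8.44e-05). Arrays with the same number did not correlate best with each other in most pairs.

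Values near 0 changed sign, none of them called. Spike-in scaling gave -0.34, -0.15 and -0.19 for the polysomal, subpolysomal and efficiency changes of Cebpb, -0.288 and -0.0868 for the polysomal and subpolysomal changes of Cebpg, and -0.31 for the polysomal change of Cebpz. The 75th percentile gave -0.00308 for the efficiency of Cebpb, and normexp 0.0105 for that of Cebpg. Without slides, the subpolysomal change of Cebpb was -0.0628 (slide 1) and -0.00072 (slide 2), its efficiency -0.0513 (slide 3), the efficiency of Cebpg 0.0712 (slide 2) and 0.00386 (slide 4), and the subpolysomal change of Cebpz 0.136 (slide 4). With 1 array left out, Cebpb ranged from -0.00666 to 0.21 on polysomes, from -0.0815 to 0.094 in the subpolysomal fraction and from -0.039 to 0.209 in efficiency, Cebpg from -0.172 to 0.0865 in efficiency, and Cebpz from -0.19 to 0.0548 in the subpolysomal fraction.

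Polysomal minus subpolysomal signal turned with spike-in scaling for Cebpb (1.44 in scramble and 1.25 in eIF6 shRNA cells), Cebpd (0.843 in eIF6 shRNA cells) and Cebpz (1.27 in scramble cells), for Cebpz with the 75th percentile (-0.38 in eIF6 shRNA cells) and without slide 4 (0.0595 in scramble cells), and for Cebpz in eIF6 shRNA cells with 1 array left out (-0.0391 to 0.223). The subpolysomal change of Eif6 was -0.216 with spike-in scaling, -0.0384 and -0.0114 without slides 2 and 3, and -0.0279 to 0.0575 with 1 array left out. Spike-in scaling also turned the polysomal changes of Nsa2 (-0.149), Rfwd2 (-0.124) and Eif2ak3 (-0.169) and the subpolysomal change of Eif2ak3 (-0.0358). The cause was not tested. Normalization within each fraction gives no value between fractions. Members with 1 probe each have no second probe to compare, and dim genes have only bounds.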
